A study of Mus musculus with 15 samples.

Results

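Cholesterol synthesis was followed in the RNA-seq of WT and *Prom1*-KO retinal pigment epithelium (RPE) through 7 genes, *Srebf2*, *Hmgcs1*, *Idi1*, *Fdft1*, *Sqle*, *Lss* and *Cyp51*. They were chosen by gene symbol, and all 7 had values among the 20910 genes of the cultured cells and among the 25038 genes of the tissue. Cells build cholesterol from acetyl-CoA through the mevalonate pathway, squalene and lanosterol. SREBP2, the transcription factor encoded by *Srebf2*, is held in the endoplasmic reticulum by SCAP and INSIG proteins while sterols are plentiful, and when sterols fall it moves to the Golgi, is cleaved and switches on the enzymes of the pathway. The RPE makes cholesterol, takes up lipoproteins from the choroidal blood and receives sterol with the photoreceptor outer segments it engulfs, so synthesis, uptake and export are all in use in this tissue.

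The cultured cells (mRPE) are RPE cells pooled from C57/BL6J mice and immortalized with a lentivirus carrying HPV E6/E7, with puromycin selection. They were grown in alpha-MEM with N1 supplement, fetal bovine serum, hydrocortisone, taurine and triiodothyronine. There were 4 libraries of WT cells, 3 of *Prom1*-KO clone KO22 and 2 of *Prom1*-KO clone KO26. Both KO lines were made with lentiviral Cas9 and a synthetic guide RNA to *Prom1*, and each is 1 clone, so an effect of the knockout and a trait of the clone cannot be told apart. The library names give 2 sequencing batches, and batch 1 holds 1 library of each group (replicate 1 throughout), while batch 2 holds 3 WT, 2 KO22 and 1 KO26 library. The tissue was RPE with choroid dissected from mice, 3 libraries labelled WT and 3 labelled *Prom1*-KO, the latter from mice in which Cre driven by the RPE65 promoter and activated with tamoxifen removes a floxed *Prom1* in RPE cells. The methods of the study give age, strain and both sexes for its mice as a whole, and which animals stand behind each tissue library is not stated. The study calls its mRPE replicates biological without saying that they came from separate cultures, so the p-values measure the spread between these libraries, which may be technical.

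Total counts in mRPE were 27537863, 13469818, 10187978 and 12614921 in WT replicates 1 to 4, 11863633, 20760399 and 13096157 in KO22 replicates 1 to 3, and 24175274 and 8076188 in KO26 replicates 1 and 2. In RPE/choroid they ranged from 48154444 to 61766179. Levels are given as CPM on the TMM scale, that is counts scaled to a common library size. At these depths 6 of the 7 genes had at least 165 counts in every mRPE library. *Idi1* had 8 to 307 counts, so its level in WT batch 2 libraries, 8 to 20 counts, is the least precise. Genes were tested with edgeR, a gene was said to rise or fall at an adjusted p under 0.05, and the stricter limits used for differential expression added an absolute log2 fold change over 1.2.

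*Prom1* itself was not analysed here in the mRPE libraries. In RPE/choroid the *Prom1* level was 48.7, 49.6 and 53.3 CPM in WT and 49.9, 48.1 and 35.5 CPM in the libraries labelled *Prom1*-KO. The groups overlapped, and the log2 fold change of −0.18 ± 0.16 (SE; adjusted p = 0.824) did not pass, so the tissue libraries are called by their labels throughout. RPE markers did differ between them, as given with that comparison.

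The mRPE libraries were also checked against marker genes. Of 14 RPE markers, 4 (*Mitf*, *Best1*, *Rdh5* and *Pmel*) had values here, summing to 11.8 to 17.4 CPM in WT, 17.3 to 39.9 CPM in KO22 and 8.17 and 12.6 CPM in KO26. *Rpe65*, *Rlbp1*, *Lrat* and *Ttr* were not analysed here in these libraries. The 9 fibroblast and mural markers with values summed to 13800 to 19500 CPM in WT, 5820 to 9020 CPM in KO22 and 22000 and 23000 CPM in KO26. *Col1a2* was the most abundant of them (1530 to 8720 CPM) except in KO22 replicate 1, where *Col3a1* was (2800 CPM). Endothelial markers had values for 5 of 8. They summed to 153 to 237 CPM in WT, 3.96 to 5.31 CPM in KO22 and 74.2 and 56.6 CPM in KO26. *Kdr* was the most abundant except in KO22 replicate 1, where *Plvap* was (2.51 CPM). In WT and KO26 the sum was nearly all *Kdr*. *Mitf* had the highest mean of the RPE markers over the 9 libraries, and the gene in brackets is that with the highest mean for the other lists. Over all 9 libraries the markers of photoreceptors (8 of 14, *Opn1sw*) summed to 11.6 to 21.4 CPM, of retinal neurons and glia (6 of 10, *Glul*) to 83.6 to 144 CPM, of immune cells (3 of 7, *Cd68*) to 7.75 to 13.8 CPM and of muscle (1 of 6, *Tnnt3*) to 0.531 to 10.9 CPM. In bulk RNA, fewer cells of a type and less RNA per cell cannot be told apart.

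KO22 was compared with WT over 7 libraries, with the batch as a term, to ask how loss of *Prom1* relates to the pathway. Of the 7 genes, 4 rose (26.9% of the 20455 genes tested rose) and 0 fell (26.1% of all genes fell), and 2 were higher at both limits (11.4% of all genes). Their median log2 fold change was 0.69, and that of all genes tested was −0.03. The values behind these counts differed between the batches.

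*Srebf2* encodes SREBP2, the activator of the pathway. Its level was 48.3 CPM in WT replicate 1 and 21.9, 20.1 and 19.7 CPM in WT replicates 2 to 4, against 69.1, 62.4 and 54.7 CPM in KO22. Every KO22 library was above every WT library, and the batch 1 WT library was nearest to them. *Srebf2* rose by a log2 fold change of 1.21 ± 0.18 (adjusted p = 4.27e-04), which just exceeds the fold limit.

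*Hmgcs1* encodes the cytosolic HMG-CoA synthase, which makes the precursor of mevalonate. It stood at 59.5 CPM in WT replicate 1, at 24.0, 19.6 and 20.5 CPM in WT replicates 2 to 4, and at 29.9, 43.0 and 40.5 CPM in KO22. The groups overlapped only because the batch 1 WT library was above all KO22 libraries. The log2 fold change over both batches was 0.41 ± 0.31 (adjusted p = 0.295).

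*Idi1* encodes isopentenyl diphosphate isomerase, which sets the balance of the isoprenoid building blocks. WT replicate 1 had 4.61 CPM and WT replicates 2 to 4 had 1.37, 0.785 and 0.718 CPM, while KO22 had 5.62, 5.84 and 6.36 CPM. No KO22 library overlapped WT, and *Idi1* rose by a log2 fold change of 1.82 ± 0.44 (adjusted p = 0.00657). It was the largest change among the 7 genes and the one at the lowest counts.

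*Fdft1* encodes squalene synthase, at the branch where isoprenoids are committed to sterols. The levels were 58.7, 37.8, 38.6 and 37.2 CPM in WT and 55.2, 81.2 and 76.1 CPM in KO22. Here the batch 1 libraries of the 2 groups lay close together and the batch 2 libraries far apart. *Fdft1* rose (log2 fold change 0.73 ± 0.19, adjusted p = 0.0107), but not without KO22 replicate 2 (0.54, adjusted p = 0.0613).

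*Sqle* encodes squalene epoxidase, a rate-limiting enzyme of the sterol part of the pathway. It had 106 CPM in WT replicate 1, 37.4, 37.0 and 36.7 CPM in the other WT libraries, and 85.6, 80.7 and 77.2 CPM in KO22. All KO22 libraries lay between the batch 1 WT library and the batch 2 WT libraries. The rise of 0.69 ± 0.23 on the log2 scale (adjusted p = 0.0284) was lost when any 1 batch 2 library was left out (0.49 to 0.62, adjusted p 0.0891 to 0.132) and with no batch term (0.57, adjusted p = 0.209). For *Sqle* it was 1.10 without KO22 replicate 1 and 1.08 without WT replicate 1.

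*Lss*, which encodes lanosterol synthase, had 29.8, 15.7, 16.2 and 15.5 CPM in WT and 19.1, 21.2 and 22.5 CPM in KO22 (log2 fold change 0.14 ± 0.20, adjusted p = 0.58). *Cyp51*, which encodes the demethylase that acts on lanosterol, had 123, 29.9, 28.1 and 27.1 CPM in WT and 62.9, 66.0 and 62.5 CPM in KO22 (0.58 ± 0.34, adjusted p = 0.177). For both, the KO22 libraries lay below the batch 1 WT library and above the 3 batch 2 WT libraries. Leaving out the batch 1 WT library gave a log2 fold change of 0.46 for *Lss* (adjusted p = 0.00188) and 1.17 for *Cyp51* (adjusted p = 4.20e-10), and for *Hmgcs1* 0.95 (adjusted p = 1.08e-07). Without the batch 1 KO22 library the 3 genes passed at 0.48, 1.19 and 0.97. In both settings the batch term takes up the remaining batch 1 library. Both are therefore the comparison within batch 2, given again below, and not separate results. Without single batch 2 libraries the values went down to −0.03 for *Lss*, 0.32 for *Cyp51* and 0.16 for *Hmgcs1*.

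**Figure D1:**
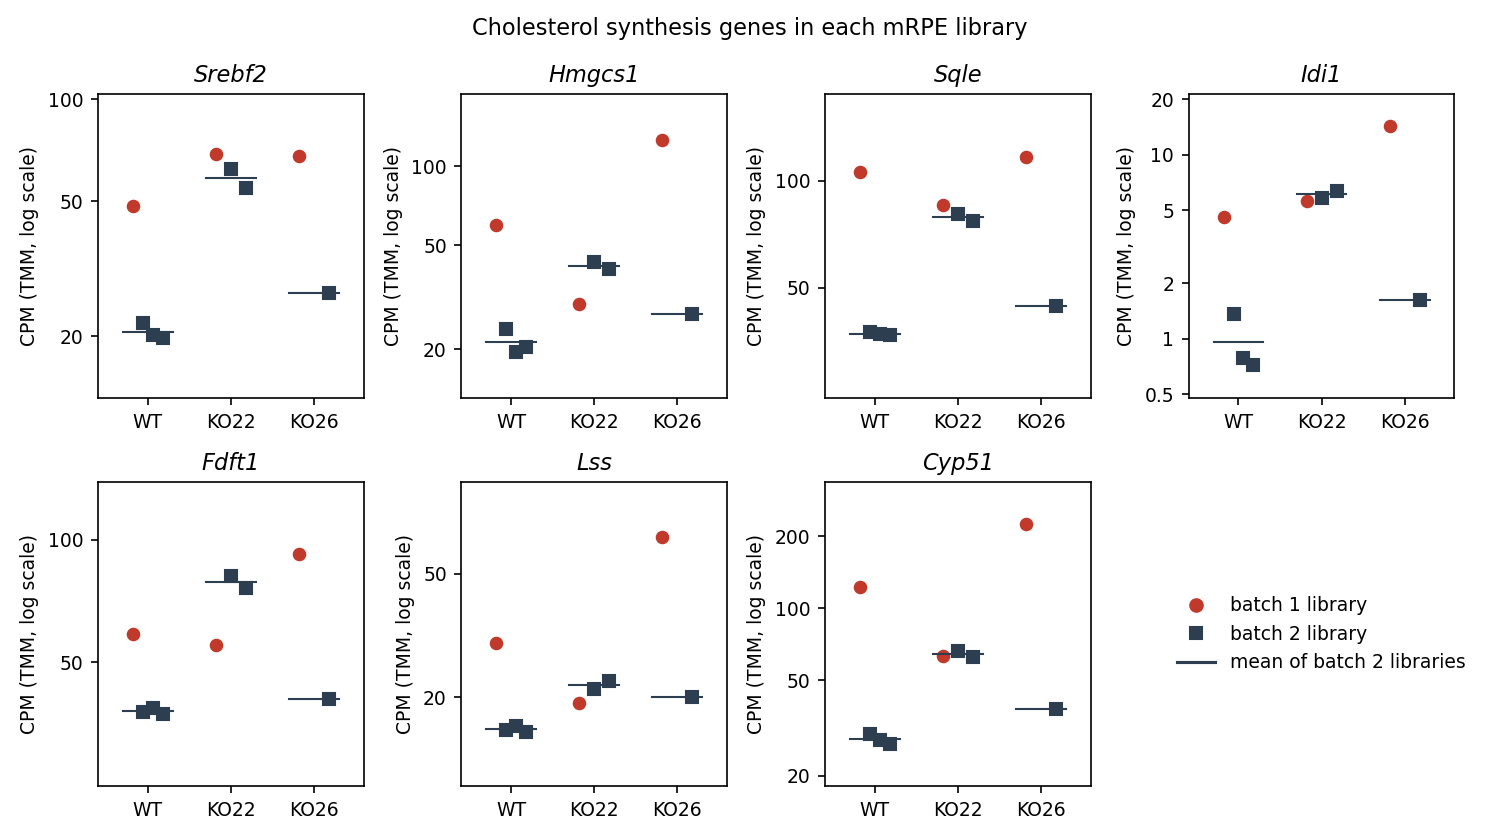
Level of each gene in every mRPE library, in CPM on a log axis, by group on the horizontal axis, with circles for batch 1, squares for batch 2 and a line at the mean of the batch 2 libraries. The batch 1 libraries of WT and KO26 lie above the batch 2 libraries of their group in every panel, and the batch 1 library of KO22 lies below its batch 2 libraries for *Hmgcs1*, *Idi1*, *Fdft1* and *Lss*.

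Because of this split, a fit with a separate mean for each group in each batch was made over all 9 mRPE libraries, chosen after seeing the data. In it the spread comes from the batch 2 libraries of WT and KO22, and each single library is assumed to vary as they do, so the contrasts that use batch 1 compare single libraries. Pairs of WT libraries within batch 2 had a chi-square of 4.80 to 7.20 per degree of freedom, and pairs across the batches 59.3 to 79.6. For KO22 the pair within batch 2 had 11.8, and pairs across the batches 42.1 and 63.0, so the SEs hold only the spread within batch 2. The fit was prompted by the split seen in these 7 genes, so it does not test that split anew. This holds for its contrast within batch 2 too, since the levels of those libraries were part of the split. Its contrasts with a single library on one side are given as a description, where higher and lower mean past the same limit against the spread within batch 2. Within batch 2, all 7 genes rose in KO22 against WT (32.3% of the 20737 genes tested rose), by log2 fold changes of 0.47 ± 0.11 for *Lss* to 2.62 ± 0.26 for *Idi1*, with a median of 1.09 (−0.04 over all genes). In batch 2 the KO22 libraries were above every WT library for 7 of the 7 genes, which held for 37.3% of all genes, a comparison added after seeing the data. The change was 1.51 ± 0.10 for *Srebf2* (adjusted p = 9.26e-12), 1.18 ± 0.09 for *Cyp51* (adjusted p = 2.49e-10) and 0.96 ± 0.10 for *Hmgcs1* (adjusted p = 3.22e-08).

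Within batch 1 there was 1 KO22 library and 1 WT library, so their difference is a description of these libraries. The log2 fold change of KO22 against WT was −0.99 for *Hmgcs1*, −0.97 for *Cyp51*, −0.64 for *Lss*, −0.30 for *Sqle*, −0.09 for *Fdft1*, 0.29 for *Idi1* and 0.52 for *Srebf2*. Against the spread within batch 2, the first 3 were lower (23.4% of all genes) and *Srebf2* was higher (22.0% of all genes), and with DESeq2's test *Lss* was not (−0.60, adjusted p = 0.0527).

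The difference between the batches restates the split for which the fit was chosen. The KO22 change was lower in batch 1 than in batch 2 for 7 of 7 genes (17.2% of all genes), from which nothing further is read. The difference was smallest for *Srebf2* (−0.99 ± 0.18 on the log2 scale) and largest in size for *Idi1* (−2.34 ± 0.42) and *Cyp51* (−2.15 ± 0.17). The median over the 7 genes was −1.40, and over all genes −0.14.

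Set against its own group, the batch 1 WT library was higher than the batch 2 WT libraries for all 7 genes (15.3% of all genes were higher), from 0.63 ± 0.11 for *Fdft1* to 2.23 ± 0.30 for *Idi1* on the log2 scale. *Cyp51* differed by 2.12 ± 0.11, *Sqle* by 1.51 ± 0.10 and *Hmgcs1* by 1.47 ± 0.12. In KO26 the batch 1 library was also higher for all 7 genes (17.9% of all genes), from 1.18 ± 0.14 for *Fdft1* to 3.13 ± 0.39 for *Idi1*. In KO22 none was higher in batch 1 (10.2% of all genes), and *Hmgcs1* (−0.48 ± 0.14) and *Fdft1* (−0.51 ± 0.12) were lower (2 of 7, where 16.8% of all genes were lower). *Hmgcs1* did not pass there with DESeq2's test (−0.43, adjusted p = 0.111) or without KO22 replicate 2 (−0.37, adjusted p = 0.105), and without that library *Srebf2* was higher in batch 1 (0.40, adjusted p = 0.0465). The batch difference in KO22 was below that in KO26 for 7 of 7 genes (20.4% of all genes), with a median of −1.90 against −0.19 over all genes.

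**Figure D2:**
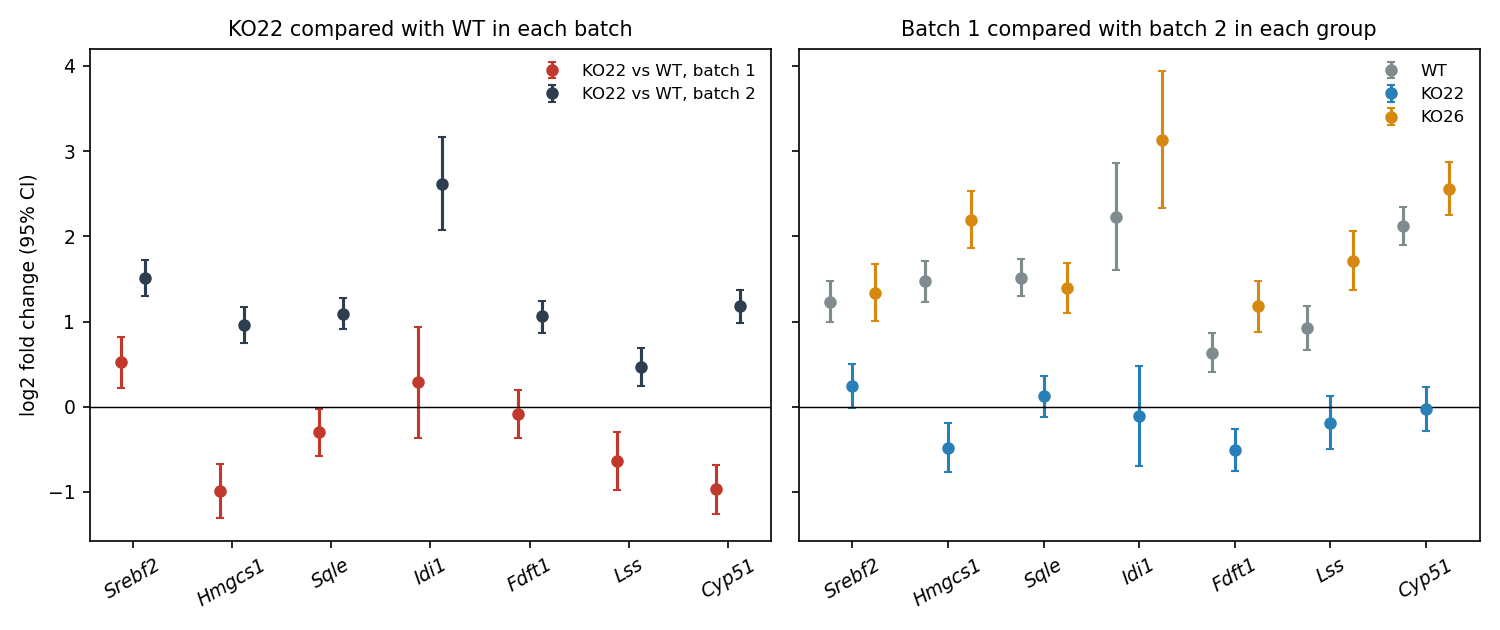
Log2 fold changes of the 7 genes with 95% confidence intervals from the fit with a mean for each group in each batch and the spread within batch 2, on the left KO22 against WT in batch 1 and in batch 2, and on the right batch 1 against batch 2 within WT, KO22 and KO26. The intervals of KO22 against WT lie above 0 for all 7 genes in batch 2. In batch 1 they lie below 0 for *Hmgcs1*, *Sqle*, *Lss* and *Cyp51* and above 0 for *Srebf2* (0.52). Those of *Fdft1* (−0.09) and *Idi1* (0.29) include 0. The intervals of the batch difference in WT and KO26 lie above 0 for all 7 genes.

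Other measures are given beside the batch split. The libraries with the highest level of most of the 7 genes, replicate 1 of WT and of KO26, also had the highest total counts in mRPE and the lowest TMM factors (0.914 and 0.891, against 0.976 to 1.10 in the other libraries). The share of counts from mitochondrially encoded genes was 21.6% in WT replicate 1 and 17.6% to 21.6% in the other WT libraries. It was 17.4% and 12.9% in KO26 replicates 1 and 2. In KO22 replicates 1 to 3 it was 14.5%, 14% and 16.3%, below every WT library. Fibroblast and mural markers summed to 19500 CPM in WT replicate 1 and 13800 to 16500 CPM in the other WT libraries, and to 22000 and 23000 CPM in KO26 replicates 1 and 2. Endothelial markers summed to 237 CPM in WT replicate 1, 153 to 164 CPM in the other WT libraries and 74.2 and 56.6 CPM in KO26. These sums were nearly all *Kdr*, at 235 CPM in WT replicate 1 and 72.3 and 55.3 CPM in KO26. The part of depth or of the batch in these levels was not tested.

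Clone KO26 was set beside KO22, and both comparisons share the WT libraries. Its 2 libraries are those that the study dropped as outliers once the batch had been corrected. *Srebf2* was at 67.8 and 26.8 CPM in KO26 replicates 1 and 2, *Hmgcs1* at 126 and 27.4 CPM, *Idi1* at 14.2 and 1.62 CPM and *Fdft1* at 92.2 and 40.7 CPM. *Sqle* was at 117 and 44.5 CPM, *Lss* at 65.7 and 20.0 CPM and *Cyp51* at 224 and 38.0 CPM. Each replicate was above the WT libraries of its own batch for each gene, by more in batch 1 for most of them. Over both batches the log2 fold changes were 0.32 ± 0.26 for *Sqle* to 1.53 ± 0.57 for *Idi1*, with a median of 0.83 (0.03 over all genes). With edgeR 0 of 7 genes rose (2.36% of the 20737 genes rose) and 0 fell (1.13% of all genes fell). At an unadjusted p under 0.05 there were 3, *Srebf2*, *Idi1* and *Lss* (20.1% of all genes), and DESeq2's test called 0. Left out in turn, single libraries moved these values to 0.25 to 2.22 for *Idi1*, 0.11 to 1.61 for *Hmgcs1*, 0.15 to 1.44 for *Cyp51*, 0.20 to 1.47 for *Lss*, −0.04 to 1.00 for *Fdft1*, 0.25 to 0.80 for *Srebf2* and 0.09 to 0.68 for *Sqle*. The lowest were without KO26 replicate 1 and the highest without KO26 replicate 2, or for *Sqle* without WT replicate 1, and of them *Lss* rose without KO26 replicate 2 (adjusted p = 0.0396).

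Without the KO22 libraries in the fit, 5 of the 7 genes rose in KO26 (8.76% of the 19877 genes tested in that fit), with *Idi1* at 1.29 ± 0.30 (adjusted p = 0.00912) and *Cyp51* at 0.60 ± 0.12 (adjusted p = 0.00417). In the fit with a mean for each group in each batch, the batch 1 KO26 library was higher than the batch 1 WT library for 6 of 7 genes (14.4% of all genes), 1 library against 1, led by *Idi1* (1.63 ± 0.28) and *Lss* (1.14 ± 0.15). With DESeq2's test *Srebf2* did not pass there (0.45, adjusted p = 0.138). Within batch 2 the single KO26 library was higher for *Cyp51* (0.42 ± 0.13), and the other 6 did not pass (11.4% of all genes differed in either direction). *Cyp51* did not pass with DESeq2's test (0.44) or without WT replicate 3 or 4 (0.42 and 0.39), though the log2 fold change was about as large. The KO26 change differed between the batches for *Lss* (0.80 ± 0.21), 1 of 7 where 2.92% of all genes differed. It did not pass with DESeq2's size factors (0.74), with DESeq2's test (0.74) or without WT replicate 2, 3 or 4 (0.75, 0.78 and 0.81). The difference was about as large in each. Without KO22 replicate 2 or 3 *Hmgcs1* also passed (0.67 and 0.73, adjusted p = 0.0472 and 0.0261).

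Tested against each other over both batches, the clones differed in *Srebf2*, which was higher in KO22 by 0.70 ± 0.25 on the log2 scale (adjusted p = 0.0473), 1 of 7 where 16.3% of all genes were higher. None of the 7 was lower in KO22, where 18.1% of all genes were. The *Srebf2* difference did not pass without KO22 replicate 2 (0.56, adjusted p = 0.105), without KO22 replicate 3 (0.67, adjusted p = 0.094) or without KO26 replicate 2 (0.42, adjusted p = 0.351), or with no batch term (0.38 ± 0.44, adjusted p = 0.564). Without KO22 replicate 1 the *Srebf2* difference was 1.10, and *Sqle* (0.88), *Idi1* (1.47) and *Fdft1* (0.77) were higher in KO22 too, and without KO26 replicate 2 *Lss* was lower (−1.33, adjusted p = 0.0159).

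Of 14 other enzymes of sterol synthesis, 6 rose and 1 fell in KO22 against WT over both batches (26.9% and 26.1% of all genes), with a median log2 fold change of 0.53 (−0.03 over all genes). The 2 at both limits were *Msmo1*, the methyl sterol oxidase after *Cyp51*, and *Mvd*, the decarboxylase that yields isopentenyl diphosphate. *Msmo1* had 48.1, 13.0, 10.7 and 9.40 CPM in WT and 35.0, 48.8 and 47.2 CPM in KO22, and it rose by 1.39 ± 0.41 (adjusted p = 0.0177). *Mvd* had 5.48, 1.37, 1.77 and 1.94 CPM in WT and 4.75, 6.80 and 7.14 CPM in KO22, and it rose by 1.33 ± 0.40 (adjusted p = 0.0182). In both genes WT replicate 1 lay within the range of KO22. Without any 1 of the batch 2 libraries neither passed (adjusted p 0.0551 to 0.0711), at 1.12 to 1.33 for *Msmo1* and 1.10 to 1.27 for *Mvd*. With no batch term *Msmo1* did not pass either (1.08, adjusted p = 0.101). Without KO22 replicate 1 or WT replicate 1 the change was 2.13 and 2.11 for *Msmo1* and 2.05 and 2.03 for *Mvd*. *Tm7sf2*, a sterol reductase named after its values were seen, fell (−0.93 ± 0.35, adjusted p = 0.0479). Within batch 2, 11 of the 14 rose in KO22 and 0 fell (32.3% and 30.7% of all genes), and in the single libraries of batch 1, 1 was higher and 7 were lower in KO22 (22.0% and 23.4%). Of the 14, 9 were higher in the batch 1 WT library than in the batch 2 WT libraries (15.3% of all genes) and 13 in the batch 1 KO26 library than in the batch 2 one (17.9%), while 5 were lower and 1 higher in batch 1 in KO22 (16.8% and 10.2%). In KO26 against WT over both batches edgeR called 0 of the 14, with 2 at an unadjusted p under 0.05 (20.1% of all genes).

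Of 12 genes of SREBP processing and sterol sensing, 6 rose and 2 fell in KO22 against WT (26.9% and 26.1% of all genes), with a median of 0.41, and 0 passed both limits. *Insig1*, the SREBP2 target that retains SCAP, was 1 of 4 higher in the batch 1 WT library (1.41 ± 0.16, 15.3% of all genes), and its KO22 change was lower in batch 1 than in batch 2 (−1.32 ± 0.25). It was named after its values were seen. This difference was the lowest among the 12 genes, which ran up to 1.46 with a median of −0.35.

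Of 14 genes of lipoprotein uptake and sterol transport inside the cell, 4 rose and 5 fell in KO22 (26.9% and 26.1% of all genes), with a median of −0.04. *Lrp8*, a lipoprotein receptor that also binds reelin, had 12.3, 4.73, 4.71 and 5.10 CPM in WT and 30.6, 76.8 and 78.5 CPM in KO22. The groups did not overlap, and it rose by 3.21 ± 0.43 (adjusted p = 2.25e-04). *Mylip*, a ubiquitin ligase that marks lipoprotein receptors for degradation, had 11.4, 10.7, 11.8 and 12.3 CPM in WT and 3.97, 5.55 and 4.89 CPM in KO22, and it fell by 1.25 ± 0.17 on the log2 scale (adjusted p = 2.53e-04) with no split by batch in WT. *Gramd1c*, of a family that carries sterol from the plasma membrane to the endoplasmic reticulum, fell by 2.01 ± 0.52 (adjusted p = 0.00954) at 2 to 13 counts per library, and did not pass without KO22 replicate 2 (−1.78, adjusted p = 0.0608).

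Among 11 fatty acid synthesis genes that SREBP1 is known to activate, 6 rose and 1 fell in KO22 (26.9% and 26.1% of all genes), with a median of 0.54. *Me1*, the cytosolic malic enzyme, was the 1 gene at both limits, and its levels of 48.5, 39.0, 39.5 and 37.8 CPM in WT and 158, 126 and 115 CPM in KO22 did not overlap (1.66 ± 0.10, adjusted p = 2.02e-06). Of the 11, 9 were higher in the batch 1 WT library (15.3% of all genes). Of 8 genes of the isoprenoid side branches 2 rose and 1 fell (26.9% and 26.1% of all genes), with a median of −0.07. *Pdss1*, which makes the side chain of ubiquinone, rose by 1.39 ± 0.12 (adjusted p = 1.57e-05).

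On the sterol removal side, 1 of 5 tested genes among LXR targets, esterification and efflux rose and 3 fell (26.9% and 26.1% of all genes), with a median of −0.38. *Abca1*, the cholesterol exporter that LXR switches on, was named after its values were seen because it split the other way. It was lower in the batch 1 WT library (83.1 CPM) than in the batch 2 WT libraries (154, 197 and 179 CPM), by −1.09 ± 0.15 on the log2 scale. In KO22 it was higher in batch 1 (0.54 ± 0.14), and KO22 was above WT in the single libraries of batch 1 (1.19 ± 0.17) and fell within batch 2 (−0.44 ± 0.11). Over both batches it fell in KO26 (−1.51 ± 0.34, adjusted p = 0.0381). Of 5 oxysterol enzymes tested, 1 rose and 2 fell (the same shares of all genes), with a median of −1.04. The 1 that rose was *Cyp7b1*, an oxysterol hydroxylase. It went from 0.0795 to 1.08 CPM in WT to 13.9 to 24.4 CPM in KO22 (5.21 ± 0.49, adjusted p = 2.86e-05).

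Proliferation genes were listed beside the 7 genes. In KO22 all 10 rose against WT (26.9% of all genes), with a median of 2.30, led by *Mcm5* (3.18 ± 0.36), *Mcm3* (2.74 ± 0.24), *Aurka* (2.64 ± 0.23) and *Ccnb1* (2.50 ± 0.17). In the single libraries of batch 1 all 10 were higher in KO22 (22.0% of all genes), with a median of 1.45 against −0.30 for the cholesterol synthesis genes, and within batch 2 all 10 rose (32.3% of all genes), with a median of 2.65 against 1.09. In KO26 7 of 10 rose (2.36% of all genes), with a median of 1.24. Within KO22 all 10 were lower in batch 1 than in batch 2 (16.8% of all genes), with a median of −0.73, where 2 of the 7 cholesterol synthesis genes were lower and their median was −0.11. In WT 5 of 10 were higher in batch 1 (15.3% of all genes), with a median of 0.43 against 1.47 for the cholesterol synthesis genes. In KO26 the median for batch 1 against batch 2 was 0.79, and 1.71 for the cholesterol synthesis genes. For the KO22 change in batch 1 minus that in batch 2 the medians were −1.24 and −1.40. For the batch difference in KO22 minus that in KO26 they were −1.52 and −1.90. The part of proliferation in the levels of the pathway was not tested.

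The genes whose profile over the 9 mRPE libraries lay nearest the mean of the 7 were *Krtcap2*, *Rps2*, *Fhl3*, *Snrpf* and *Sf3b5*, by a root mean square difference in centred log2 CPM of 0.17 to 0.21 among 15949 genes with a mean of at least 1 CPM. The 7 genes themselves lay 0.22 (*Sqle*) to 0.70 (*Idi1*) from their mean, and the median gene 0.87. The nearest genes encode a ribosomal protein, splicing proteins and other proteins outside sterol synthesis. They lay nearer the mean than any of the 7 did, but they were picked as the nearest of 15949 genes and the 7 were not. Nothing is therefore read from that difference. In RPE/choroid the nearest were *Glrx*, *Ptgfrn*, *Atp5f1b*, *Gde1* and *Rpa2*, at 0.03 to 0.05 over 6 libraries. The mean profile there ran from −0.27 to 0.24, against −0.96 to 1.44 in mRPE.

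In RPE/choroid the libraries labelled *Prom1*-KO were compared with WT, 3 against 3. *Srebf2* had 26.5, 17.9 and 18.3 CPM in WT and 19.2, 23.8 and 13.7 CPM in KO, and *Hmgcs1* 25.6, 17.6 and 17.5 CPM in WT and 19.2, 24.1 and 18.9 CPM in KO. For *Idi1* the levels were 4.25, 2.91 and 3.79 CPM in WT and 3.69, 4.90 and 4.01 CPM in KO, and for *Fdft1* 27.7, 22.6 and 25.4 CPM and 23.2, 26.7 and 25.1 CPM. The groups overlapped for these 4 genes, with the highest WT value always in replicate 1. *Sqle* had 22.5, 14.9 and 14.3 CPM in WT and 23.2, 24.5 and 26.7 CPM in KO, the one gene of the 7 whose groups did not overlap. *Lss* had 17.0, 14.8 and 20.8 CPM in WT and 19.6, 24.3 and 24.2 CPM in KO, and *Cyp51* 13.5, 9.57 and 9.14 CPM and 10.9, 11.8 and 10.0 CPM.

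None of the 7 genes passed in edgeR's test, where 0.193% of the 24926 genes did in either direction, and DESeq2's test also called 0 of 7. At an unadjusted p under 0.05 there was 1 (8.30% of all genes), *Sqle*, at a log2 fold change of 0.52 ± 0.19 (95% interval 0.06 to 0.98, adjusted p = 0.533). The other estimates ran from −0.14 ± 0.24 for *Srebf2* (interval −0.71 to 0.42) to 0.37 ± 0.17 for *Lss* (interval −0.02 to 0.76), with a median of 0.04 against 0.01 over all genes. Every interval of the 7 ended below 1.2, so a rise past the fold limit lay outside each of them. The test of a difference between tissue and cells was not made, since the tables were normalized separately.

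**Figure D3:**
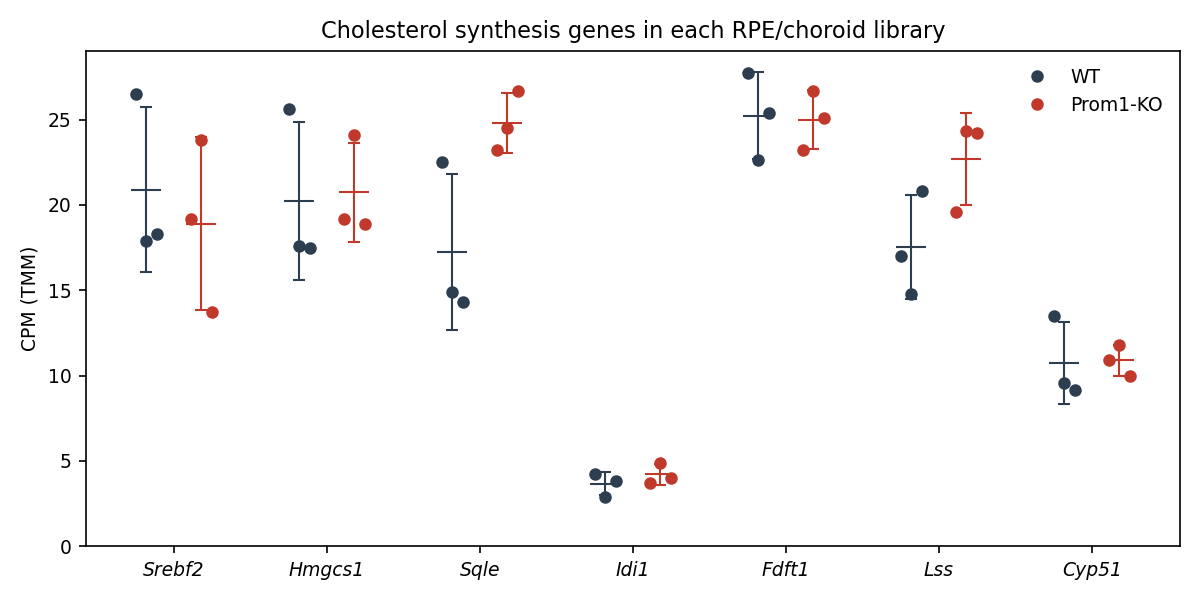
Level of each gene in the 6 RPE/choroid libraries, in CPM on a linear axis from 0, with points for libraries and bars for the mean and SD of 3. The groups overlap for *Srebf2*, *Hmgcs1*, *Idi1*, *Fdft1*, *Lss* and *Cyp51*, and the KO values of *Sqle*, 23.2 to 26.7 CPM, lie above the WT values of 14.3 to 22.5 CPM.

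The same tissue libraries differed in RPE markers. Of 14, 4 fell in the libraries labelled *Prom1*-KO and 0 rose (0.193% of all genes changed in either direction), namely *Rpe65* (−6.06 ± 0.62, adjusted p = 0.0191), *Rgr* (−5.23 ± 0.57, adjusted p = 0.0242), *Lrat* (−3.43 ± 0.22, adjusted p = 0.00445) and *Rdh5* (−2.10 ± 0.23, adjusted p = 0.0242). The 14 summed to 3100, 2160 and 2700 CPM in WT and 788, 911 and 679 CPM in KO, with none at 0. The most abundant was *Ttr* in WT replicate 1 (977 CPM), *Rgr* in WT replicates 2 and 3 (546 and 786 CPM) and *Tyrp1* in every KO library (269 to 331 CPM). KO replicate 3 stood apart, with 84.2% of counts from mitochondrially encoded genes against 64.9% to 71.3% in the others, and it had the lowest *Srebf2*. Photoreceptor markers varied within both groups, from 46.4 to 1210 CPM in WT and 23.2 to 587 CPM in KO. With the gene of the highest mean in brackets, markers of muscle ranged from 256 to 825 CPM in WT and 52.2 to 711 CPM in KO (*Myh4*), of endothelium from 94.7 to 188 and 64.2 to 84.8 CPM (*Emcn*) and of fibroblasts and mural cells from 1270 to 2230 and 1160 to 2180 CPM (*Dcn*). Markers of retinal neurons and glia ranged from 481 to 675 and 479 to 803 CPM (*Apoe*), of melanocytes from 467 to 727 and 721 to 768 CPM (*Dct*) and of immune cells from 258 to 322 and 215 to 288 CPM (*Lyz2*). Of these lists 0 genes passed. At an unadjusted p under 0.05 there were 6 of 8 endothelial markers (8.30% of all genes), with a median of −0.73, and their sums did not overlap. The other lists had 1 of 14 photoreceptor, 2 of 10 neuron and glia, 1 of 10 fibroblast and mural, 1 of 5 melanocyte, 3 of 7 immune and 0 of 6 muscle markers. The part of these cells in the levels of the 7 genes was not tested.

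In the other pathway lists of the tissue edgeR called 0 genes. At an unadjusted p under 0.05 there was 1 of 14 sterol enzymes, 1 of 12 SREBP processing genes, 4 of 14 uptake and transport genes, 1 of 11 fatty acid genes, 0 of 8 isoprenoid genes, 0 of 7 LXR targets, 1 of 6 oxysterol enzymes and 2 of 10 proliferation genes, where 8.30% of all genes were. *Lrp8* came nearest, at 19.6, 16.3 and 24.0 CPM in WT and 6.99, 5.01 and 3.51 CPM in KO, with no overlap (−1.94 ± 0.27, adjusted p = 0.0563). It was higher in KO22 cells than in WT cells, and this difference of direction between cells and tissue was not tested.

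Levels between genes were compared per kilobase of exon, and the order depends on that length. *Sqle* has 8885 bases of exon, but its transcript used below to seek similar genes has 2807 bases. Per kilobase of such transcripts *Sqle* would be highest in WT mRPE and next after *Fdft1* in WT RPE/choroid. In WT mRPE the mean was highest for *Fdft1* (9.01 ± 2.18 CPM per kb, SD, n = 4) and *Cyp51* (8.77 ± 7.99), followed by *Sqle* (6.11 ± 3.87), *Hmgcs1* (5.87 ± 3.64), *Srebf2* (2.95 ± 1.49), *Lss* (1.70 ± 0.619) and *Idi1* (0.527 ± 0.521). The order turned between batches, with *Cyp51* at 20.8 and *Fdft1* at 12.3 CPM per kb in WT replicate 1, and 4.57 to 5.03 and 7.78 to 8.07 CPM per kb in the batch 2 WT libraries. Neighbours in the order of the means from *Fdft1* to *Lss* differed by less than the larger of their SDs. In WT RPE/choroid the order was *Fdft1* (5.28 ± 0.527 CPM per kb, SD, n = 3), *Hmgcs1* (3.84 ± 0.877), *Srebf2* (2.24 ± 0.520), *Sqle* (1.94 ± 0.517), *Cyp51* (1.81 ± 0.407), *Lss* (1.54 ± 0.267) and *Idi1* (1.03 ± 0.192). From *Srebf2* to *Lss* the neighbours again differed by less than the larger SD, and *Idi1* was the lowest in cells and tissue.

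The 7 genes lie on 5 chromosomes of GRCm39, all as protein-coding genes. *Hmgcs1* is at chr13:120151915-120170470 and *Idi1* at chr13:8935537-8942487, *Srebf2* at chr15:82031382-82093201 and *Sqle* at chr15:59186869-59203043, all on the plus strand. *Lss* is at chr10:76367298-76392976 on the plus strand, and *Fdft1* at chr14:63382189-63417027 and *Cyp51* at chr5:4123416-4154751 are on the minus strand. Other genes match part of these transcripts at 95% identity or more, which can move reads between them. Such matches cover 70.0% of the *Fdft1* transcript (the longest in *Gm6781*), 26.4% of *Idi1* (*Idi1-ps1*) and 23.3% of *Hmgcs1* (*Gm48342*), so the level of *Fdft1* above all is uncertain. *Cyp51* shares 28.6% with genes that include its neighbour *Akap9*, and *Sqle* 16.7%.

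SREBP2 binds sterol regulatory elements in promoters, usually beside sites for NF-Y and Sp1. The promoters of the 7 genes and of the listed genes were therefore searched on both strands. In the RefSeq table of promoters (GRCm38.p6, 250 bases before to 50 bases after the start) 5 of the 7 genes had an entry. The SRE core TCACNCCAC was found in 1 of the 5 promoters, *Hmgcs1*, and in 1.24% of all 32851 promoters. The NF-Y box CCAAT was in 5 of 5, and in 37.4% of all promoters. The GC box GGGCGG was in 5 of 5, and in 35.7% of all promoters. Among 15 promoters of the other sterol synthesis enzymes, 0 held the SRE core, 11 the NF-Y box and 12 the GC box. A match is a description of the letters and not a binding site. Only these letters were searched, so a promoter with no match is not shown to lack such an element.

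The 250 bases before the RefSeq start are printed for *Hmgcs1*, which holds the SRE core, for *Srebf2*, the activator, and for *Cyp51*, which had the smallest p among the 7 for the difference between batches. They were matched to GRCm39 at chr13:120151637-120151886 (plus strand), chr15:82031220-82031469 (plus strand) and chr5:4154698-4154947 (minus strand). Capitals mark the SRE core, the NF-Y box (CCAAT or ATTGG) and the GC box (GGGCGG or CCGCCC).
Hmgcs1: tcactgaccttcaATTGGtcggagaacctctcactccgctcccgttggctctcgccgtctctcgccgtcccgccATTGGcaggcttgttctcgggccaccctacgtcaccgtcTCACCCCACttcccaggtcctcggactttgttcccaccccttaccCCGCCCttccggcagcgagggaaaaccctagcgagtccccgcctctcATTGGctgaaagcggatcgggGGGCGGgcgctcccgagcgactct
Srebf2: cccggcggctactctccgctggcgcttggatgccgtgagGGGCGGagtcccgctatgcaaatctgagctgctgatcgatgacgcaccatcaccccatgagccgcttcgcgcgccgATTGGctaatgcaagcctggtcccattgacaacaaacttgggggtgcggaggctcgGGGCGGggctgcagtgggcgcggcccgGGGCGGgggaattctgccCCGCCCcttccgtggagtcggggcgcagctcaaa
Cyp51: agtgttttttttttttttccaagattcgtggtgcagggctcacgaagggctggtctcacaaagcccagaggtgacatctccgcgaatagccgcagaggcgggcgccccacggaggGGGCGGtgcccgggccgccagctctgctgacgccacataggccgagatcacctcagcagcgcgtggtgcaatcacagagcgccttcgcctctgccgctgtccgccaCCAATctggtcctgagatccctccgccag
In the 250 printed bases of *Hmgcs1* the SRE core begins 137 bases before the start, with NF-Y boxes beginning 237, 176 and 45 bases before it. *Srebf2* has 1 NF-Y box, 135 bases before the start, and 4 GC boxes, and *Cyp51* has 1 of each, 29 and 135 bases before it. These distances are to the RefSeq start. By the gene coordinates given above, *Srebf2* and *Cyp51* begin within their printed bases, so some of these boxes lie inside the annotated genes.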

How the data were processed

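RNA-seq was measured in 9 libraries of cultured mouse RPE cells (mRPE) and 6 of mouse RPE/choroid. The deposited values are the authors' gene counts, made by the authors with Trim Galore 0.6.7 and STAR on mm39, and the authors tested with DESeq2, for which the labels give 1.42.0 and the methods another version. The kit is named differently in the methods and in the labels, and the use of strand in counting is not given. Counts were normalized with TMM and tested with edgeR 4.0.16 (quasi-likelihood test, limma 3.58.1, R 4.3.3) after removing genes that did not reach 5 counts in 3 or more libraries. The model for mRPE had terms for batch and group, and adjusted p are Benjamini-Hochberg over all genes tested. SE is the fold change over the root of F. KO22 and WT were compared over 7 libraries, KO26 over 9 and RPE/choroid over 6. A fit with a mean for each group in each batch was added after seeing the data. The scripts were tested on simulated data. Total counts were 8076188 to 27537863 in mRPE and 48154444 to 61766179 in RPE/choroid, so a gene at 1 CPM has about 8 counts in the shallowest library. Alternatives were DESeq2 1.42.0 size factors and Wald test, no filter on low counts, no fold limit, no batch term, other sets of libraries, mitochondrial genes left out in RPE/choroid, and each library left out in turn. That fit, its alternatives and the comparison of KO22 libraries with every WT library of batch 2 were chosen after seeing the data, and the other fits and alternatives were fixed before these tables were opened. Genes named from the lists beyond the 7 were those past both limits in KO22 against WT or in RPE/choroid (at most 4 per list and comparison, by largest absolute log2 fold change), with the 5 genes nearest the mean profile of the 7 in each tissue, and others are said to be chosen after their values were seen. The 7 genes and the lists were chosen with earlier results of these data known. Similar transcripts were sought with BLAST+ 2.17.0 at 95% identity over at least 100 bases, and promoters were searched with Python 3.11.15.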

Additional observations from a re-analysis of the deposited data

Results flagged for a closer look

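Among the 4 WT mRPE libraries the batch 1 library stood apart as the highest. Its gap to the nearest library, as a share of the range of the group, was 0.921 for *Srebf2*, 0.891 for *Hmgcs1*, 0.989 for *Sqle*, 0.832 for *Idi1*, 0.935 for *Fdft1*, 0.952 for *Lss* and 0.971 for *Cyp51*. It was 0.862 for *Mvd*, 0.908 for *Msmo1*, 0.949 for *Lrp8* and 0.848 for *Me1*. Chance alone sets a sample apart in this way in about 1 in 20 groups, and the genes are not independent.

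The change of KO22 against WT differed between batch 1 and batch 2, by −0.99 for *Srebf2*, −1.95 for *Hmgcs1*, −1.40 for *Sqle*, −2.34 for *Idi1*, −1.14 for *Fdft1*, −1.11 for *Lss* and −2.15 for *Cyp51* on the log2 scale. The batch difference itself differed between KO22 and KO26, by −1.10 for *Srebf2*, −2.68 for *Hmgcs1*, −1.28 for *Sqle*, −3.24 for *Idi1*, −1.69 for *Fdft1*, −1.90 for *Lss* and −2.59 for *Cyp51*. The KO26 change differed between batches for *Lss*, by 0.80. It did not pass with DESeq2's size factors (0.74), with DESeq2's test (0.74) or without WT replicate 2, 3 or 4 (0.75, 0.78 and 0.81). These contrasts use single batch 1 libraries, and batch, culture and library cannot be told apart in them.

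The clones differed from each other over both batches, with KO22 above KO26 by 0.70 for *Srebf2*, 1.85 for *Lrp8*, 1.21 for *Me1*, 1.43 for *Pdss1*, 5.95 for *Cyp7b1*, 1.18 for *Mcm3*, 1.80 for *Mcm5*, 1.24 for *Ccnb1* and 1.08 for *Aurka*. That of *Srebf2* did not pass without KO22 replicate 2 (adjusted p = 0.105), KO22 replicate 3 (0.094) or KO26 replicate 2 (0.351), or with no batch term (0.564). The differences of the other genes were not run under the alternatives. Between cells and tissue, *Lrp8* (−1.94 in RPE/choroid) and *Me1* (−0.55 in RPE/choroid) were lower in every tissue library labelled *Prom1*-KO and higher in every KO22 library than in WT. Neither change passed in edgeR's test in RPE/choroid, and the difference between cells and tissue was not tested.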

How the results depend on the processing

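The counts of 7 of 7 genes (higher in KO22 than WT within batch 2, lower in the batch difference, higher in batch 1 within WT and within KO26, lower in KO22 minus KO26) were the same in every alternative run. All restate the split that prompted the fit with a mean for each group in each batch, so none is a separate test. All but the first also rest on single batch 1 libraries. Of the 7 genes, 2 were higher at both limits in KO22 against WT, 4 with no fold limit, 1 with no batch term, and 1 to 2 without each library in turn. At both limits KO26 against WT went from 0 to 1 with WT and KO26 libraries alone and ranged from 0 to 1 without each library. With WT and KO26 libraries alone, *Srebf2*, *Hmgcs1*, *Idi1*, *Lss* and *Cyp51* rose at the adjusted p limit alone. The counts for KO22 against KO26 are at both limits unless said otherwise. Those from the fit with a mean for each group in each batch are at the adjusted p limit alone. KO22 against KO26 went from 0 to 1 with no fold limit and ranged from 0 to 1 higher and 0 to 1 lower, and with no batch term *Idi1* reversed to −0.46. With DESeq2's Wald test the count for KO26 within batch 2 was 0 (0 to 1 without each library), that lower in batch 1 within KO22 was 1 (1 to 2 lower and 0 to 1 higher), and the KO26 batch difference was 0 both there and with DESeq2's size factors (0 to 2). *Cyp51* in KO22 between batches reversed to 0.02 with both. Without each library, log2 fold changes crossed 0 for *Lss* in KO22 against WT (−0.03 to 0.48), *Fdft1* in KO26 against WT (−0.04 to 1.00), *Cyp51* within KO22 (−0.07 to 0.08), and in KO22 against KO26 for *Hmgcs1* (−1.20 to 0.35), *Idi1* (−0.42 to 1.57), *Fdft1* (−0.27 to 0.77) and *Cyp51* (−0.86 to 0.61). In RPE/choroid they did for *Srebf2* (−0.34 to 0.06), *Hmgcs1* (−0.08 to 0.24), *Fdft1* (−0.09 to 0.06) and *Cyp51* (−0.08 to 0.23). *Fdft1* in KO22 against WT did not pass without KO22 replicate 2 (0.54, adjusted p = 0.0613), and *Hmgcs1*, *Lss* and *Cyp51* passed without KO22 replicate 1 or WT replicate 1. Leaving out either batch 1 library leaves the other alone in its batch, where the batch term takes it up. The group difference then comes from batch 2, and batch 2 libraries alone gave 0.97 for *Hmgcs1*, 0.47 for *Lss* and 1.18 for *Cyp51*. The cause of the other moves was not tested. A library left alone in its group is assumed to vary like the others. The depth limits *Idi1*, at 8 to 20 counts in WT batch 2 libraries, and the 2 KO26 libraries, 1 per batch, limit every KO26 comparison.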
